A study of Mus musculus with 14 samples.

Results

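Cerebral venous sinus thrombosis (CVST) is a clot in the large veins that drain the brain. The data described here are the 9 RNA-seq libraries of mouse cerebral cortex that compare 5 samples taken 2 days after CVST was induced with 4 sham samples, out of 14 libraries in the whole series. The other 5 libraries, taken at 7 days, entered only an alternative fit in which all 14 samples shared the estimate of the spread. Cortex of both hemispheres was frozen and extracted as total RNA in both groups. The labels give the treatment and the day only. They name no strain, genotype, sex or age, no way of inducing the clot, and no day on which sham cortex was taken, so an effect of time since surgery and an effect of the clot cannot be told apart. Nothing in the labels says that each sample came from a separate mouse, and the p-values measure only the spread between these samples, which may be technical.

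When a draining vein is blocked, pressure rises in the small veins and capillaries behind it. Plasma and red cells can leak into the tissue, and the cortex may become swollen, poorly supplied with blood and, in places, infarcted. In an acute brain injury, microglia and blood-borne macrophages take up debris, astrocytes enlarge their cytoskeleton and secrete protease inhibitors and complement, and vessel cells and glia may divide. Neurons and glia may lower other genes in the same days, and the lower genes are given below at the same depth as the higher ones.

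The count table held 55894 entries, 55359 of them with an Ensembl gene, and 16413 genes had enough counts to be tested in these 9 libraries. Library totals were 15106304 to 20798651 counts, with 21885 to 22968 genes detected and 6.73 to 8.71% of counts from mitochondrial genes. None of these measures differed between the groups in an exact two-sided permutation test (adjusted p = 0.778 for each of the 3, with 0.00794 the smallest p that 4 against 5 samples can give). One library stood apart. On the first principal component, which held 45.4% of the variance, CVST 2 d samples 1 to 4 lay between 35.9 and 52.0 and the shams between -43.2 and -17.6, while CVST 2 d sample 5 lay at -21.8, within the sham range. All results below include it, and the counts are also given without it.

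At 2 days the response was mostly upward in number and in size. A gene was called when its p-value from edgeR's quasi-likelihood test, adjusted by Benjamini-Hochberg over all 16413 genes, was under 0.05. By this rule 687 genes were higher (4.19% of those tested) and 120 were lower (0.731%) at 2 days than in sham, 4.92% in either direction. Among the higher genes 514 had changed by at least 2-fold, against 21 of the lower genes, and the median log2 fold change was 1.47 for the higher and -0.59 for the lower calls. In sham the lower genes were the more abundant ones: their median sham level was 48.2 CPM (counts scaled to a library of 1000000), compared with 3.42 CPM for the higher genes and 18.9 CPM for all genes tested. The direction of a call favours this contrast. A gene near 0 in sham cannot be called lower, while genes with 0 sham counts could be tested through the CVST libraries and called higher. How much of the contrast this makes up was not tested. The lower genes also had longer transcripts, with a median length of 3539 bases against 2025 bases for the higher and 2384 bases for all tested genes (lengths implied by the ratio of the deposited counts to the deposited FPKM). In cortex made of many cell types, fewer cells of a type and less RNA per cell cannot be told apart.

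The counts depended on single libraries. Without CVST 2 d sample 5, 1464 genes were called higher (9.01%) and 779 lower (4.79%). Without any 1 of the other libraries the counts fell, to between 187 (without sham 3) and 410 (without sham 1) higher and between 13 (without sham 2) and 95 (without sham 1) lower. Without sham 2 and sham 4 they were 201 and 228 higher and 13 and 18 lower. No called gene changed direction in any of these fits in which it was tested. In all 9 of them 165 of the higher and 9 of the lower genes were called. A gene left with too few counts to be tested in a fit is counted, here and below, as not called. Without CVST 2 d 2 or 3, for instance, 763 of the 807 called genes were tested. In the fit with all libraries the 2 groups did not overlap for 570 of the 687 higher and 106 of the 120 lower genes, where 5.92% of all genes tested did not overlap with CVST above sham and 2.76% with CVST below. The calls were made from these same values, so a larger share apart among them follows from the choice and lends them no support.

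**Figure D1:**
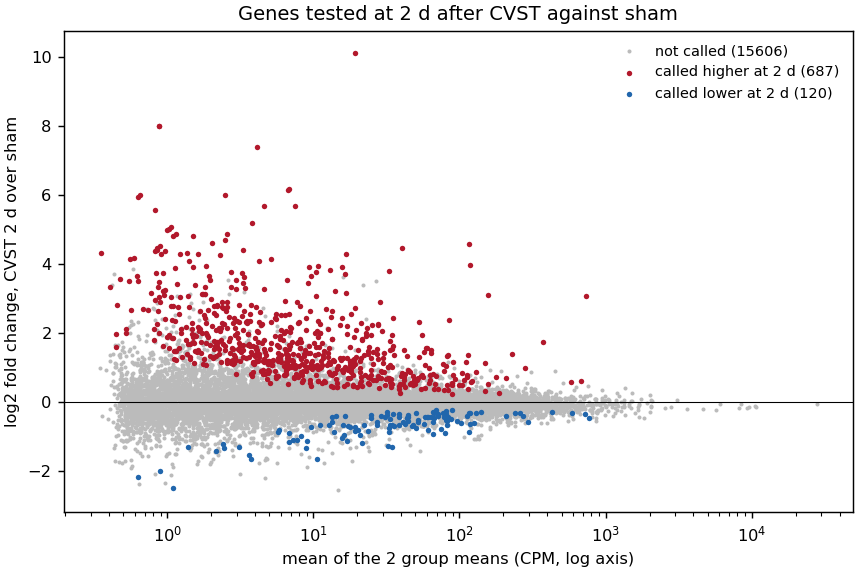
Log2 fold change of CVST 2 d over sham (vertical axis) against the mean of the 2 group means in CPM (horizontal log axis), 1 point per gene tested, with the 687 higher calls in red and the 120 lower calls in blue. The higher calls reach folds beyond 2-fold at low levels, while most lower calls sit within 2-fold at moderate and high levels.

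Among the genes with the smallest p-values were receptors and secreted proteins. Values are CPM, with the samples in the order of their numbers, sham 1 to 4 and then CVST 2 d 1 to 5, and a mean is followed by ± its SD over the 4 sham or the 5 CVST samples. Fcgr4, an activating receptor for the constant part of antibodies, was at 0.0582, 0.1797, 0.0993 and 0.267 CPM in sham and 2.33, 4.42, 2.75, 2.96 and 2.95 CPM at 2 days. All 5 CVST samples, sample 5 included, lay far above all 4 shams (log2 fold change 4.29 ± 0.39 SE, adjusted p = 0.0021). A2m, a secreted inhibitor that traps many proteases, was at 1.397, 2.22, 0.894 and 3.25 CPM in sham and 28.3, 42.8, 27.8, 31.5 and 16.9 CPM at 2 days. Its groups did not overlap either (log2 fold change 3.93 ± 0.37 SE, adjusted p = 0.0021). Col5a3, a chain of the fibrillar collagen V, was at 3.44, 2.396, 2.29 and 2.83 CPM in sham and 18.5, 13.7, 9.74, 20.6 and 12.2 CPM at 2 days, again without overlap and at a more modest size (log2 fold change 2.45 ± 0.24 SE, adjusted p = 0.0021). C5ar1, the receptor for the complement fragment C5a, was at 0.6404, 0.839, 0.497 and 0.533 CPM in sham and 3.74, 10.1, 6.01, 6.198 and 4.97 CPM at 2 days, and its lowest CVST value was that of sample 1 (log2 fold change 3.30 ± 0.33 SE, adjusted p = 0.0021). All 4 genes named here were called in each of the 9 fits that left out 1 library.

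Less known genes stood beside these. Rhoj, a small GTPase known from endothelial cells, was at 4.42, 3.89, 2.98 and 3.84 CPM in sham and 11.9, 12.7, 9.87, 16.8 and 12.6 CPM at 2 days (log2 fold change 1.76 ± 0.18 SE, adjusted p = 0.0021). Galnt15, an enzyme that starts O-linked sugar chains, rose from 3.37 ± 1.04 to 14.3 ± 2.54 CPM (log2 fold change 2.09 ± 0.22 SE, adjusted p = 0.0022). Hspb6, a small heat shock protein, rose from 4.41 ± 0.793 to 17.7 ± 4.22 CPM (log2 fold change 2.01 ± 0.22 SE, adjusted p = 0.0028). Cyb5r3, a reductase of cytochrome b5, rose by only 0.66 on the log2 scale, from 48.99 ± 2.57 to 77.2 ± 5.56 CPM, yet its groups were apart in all 9 samples (adjusted p = 0.0033). Gpr84, a receptor for medium-chain fatty acids, rose from 0.346 ± 0.0481 to 3.103 ± 1.403 CPM (adjusted p = 0.0033), and Parp3, a poly(ADP-ribose) polymerase that acts at DNA breaks, from 4.05 ± 0.9504 to 22.3 ± 8.003 CPM (adjusted p = 0.0048). Serpina3n, Gfap, C4b and Cd14 were also among the 20 higher genes with the smallest p-values, with log2 fold changes of 3.98, 3.08, 2.32 and 2.57. C4b has a near-identical neighbour, C4a, and reads could be split between them. All 10 genes named here were called in each of the 9 fits that left out 1 library.

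**Figure D2:**
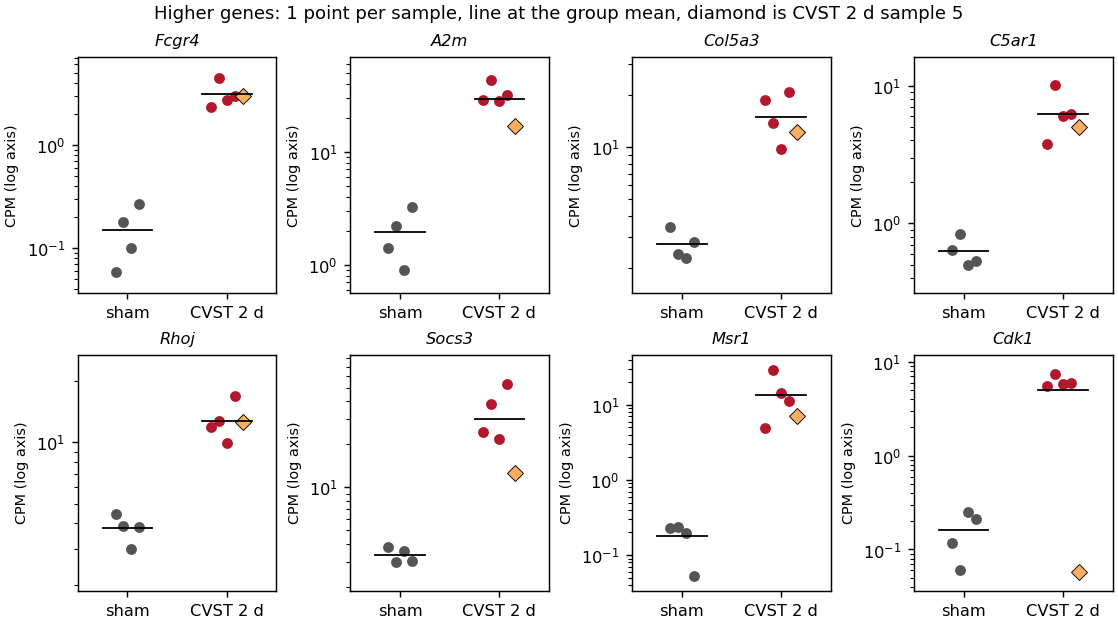
CPM (vertical log axes, different range in each panel) of 8 genes called higher, 1 point per sample, with a line at each group's mean and a diamond for CVST 2 d sample 5. The 2 groups are apart for Fcgr4, A2m, Col5a3, C5ar1, Rhoj, Socs3 and Msr1, while for Cdk1 sample 5 lies at the level of the lowest sham, near the floor of counting.

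The largest folds were in genes close to silent in sham cortex. Arg1, the arginase of alternatively activated macrophages, had 3 counts over the 4 sham libraries and 794 counts over the 5 CVST libraries, a ratio of levels of 213 (95% counting interval 72.5 to 1033). CVST sample 2 alone held 499 of them, and the CVST samples were at 2.87, 23.5, 7.39, 6.47 and 0.635 CPM. Tgm1, a transglutaminase that crosslinks proteins, went from 2 to 3652 counts, a ratio of 1467 (interval 406 to 12120). Its CVST values were 22.0, 85.4, 36.9, 45.5 and 2.02 CPM, so neither ratio is typical of each sample. For Il1rn, the antagonist of the interleukin 1 receptor, and Clec4d, a C-type lectin of myeloid cells, sham cortex had 0 counts, and with 3 counts as the floor over the 4 sham libraries they were at least 44.4-fold and 45.8-fold higher. Tfpi2, a protease inhibitor, Cd300lb, a myeloid receptor, and Hcar2, a receptor for hydroxybutyrate and niacin, had 1, 1 and 2 sham counts, with ratios of 99.6 (17.6 to 3965), 92.4 (16.3 to 3680) and 61.9 (16.8 to 515). These intervals cover counting error only, and sequencing reads of amplified cDNA are not independent molecules. Msr1, the class A scavenger receptor, was at 0.233, 0.2396, 0.199 and 0.0533 CPM in sham and 4.98, 29.1, 14.4, 11.3 and 7.05 CPM at 2 days. CVST sample 2 was the highest and every CVST sample lay far above the shams (log2 fold change 6.17 ± 0.68 SE, adjusted p = 0.0028). Ptx3, a secreted pentraxin that binds microbes and matrix, rose from 0.175 ± 0.0827 to 13.1 ± 10.9 CPM, and Ccl2, the chemokine that draws monocytes, from 0.0745 ± 0.114 to 4.86 ± 4.79 CPM, with adjusted p = 0.0076 and 0.012. Lilr4b, an inhibitory receptor of myeloid cells, also belonged to this group (log2 fold change 5.7), but it has a near-identical paralogue and its reads are uncertain. Of the 11 called genes named here, 5 were called in all 9 fits that left out 1 library, and 0, 3, 5 and 4 were not called without sham 1, 2, 3 and 4 and 2, 2, 2, 2 and 0 without CVST 2 d 1 to 5, with an adjusted p of up to 0.069 (Cd300lb). Without CVST 2 d 1, 2, 3 or 4 these 2 were Tfpi2 and Cd300lb, which had too few counts left to be tested.

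The next gene groups, put together after the values had been seen, describe the receptors and the killing machinery of phagocytes. Of the 13 tested genes for Fc and complement receptors 10 were called higher and 0 lower, against 4.19% higher among all genes, with a median log2 fold change of 1.9. Fcgr3, Fcer1g (the signalling chain that activating Fc receptors share) and Itgb2 (the chain common to the leukocyte integrins) rose by 1.79, 1.72 and 1.9 on the log2 scale. Of the 15 tested complement genes 7 were higher, among them C1qa, C1qb and C3 with log2 fold changes of 1.57, 1.58 and 3.13. Of the 8 tested genes of the NADPH oxidase, the enzyme that makes superoxide in phagocytes, 7 were higher, including the catalytic subunit Cybb (2.3), its partner Cyba (1.63), the regulators Ncf1 (1.49) and Rac2 (2.33), and the proton channel Hvcn1 (1.13). The 3 counts were 8 (without sham 2, 3 or 4) to 10 (without CVST 2 d 5), 6 (without sham 2 or 3 or CVST 2 d 2 or 3) to 8 (without CVST 2 d 5) and 2 (without sham 3 or 4) to 7 (without CVST 2 d 5) when each library was left out in turn. Sample 5 took part in this response: its mean log2 level over the Fc and complement receptor genes lay 1.27 above the sham mean, where the shams ranged from -0.19 to 0.17 and the other CVST samples from 1.62 to 2.47. Of the 11 called genes named here, 8 were called in all 9 fits that left out 1 library, and 1, 2, 3 and 3 were not called without sham 1, 2, 3 and 4 and 0, 0, 1, 0 and 0 without CVST 2 d 1 to 5, with an adjusted p of up to 0.11 (Cybb).

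Receptors and ligands of the tumour necrosis factor family, with C1q/TNF-related proteins, formed another group chosen from the values. Of 17 tested members 6 were higher, all of them receptors, against 4.19% of all genes tested: Tnfrsf1a, the main receptor for TNF, with a log2 fold change of 1.93, Tnfrsf13b with 1.63, Ltbr, the lymphotoxin receptor, with 1.07, the death receptor Fas with 1.33, and Tnfrsf1b and Tnfrsf12a with 1.32 and 2.32. The count was 2 (without sham 2 or 3 or CVST 2 d 2 or 3) to 9 (without CVST 2 d 5). Tnf itself had too few counts to be tested. Of 21 genes of eicosanoid and kinin signalling 5 were higher, namely the cyclooxygenase Ptgs1 (1.6), the prostaglandin synthase Ptges (1.28), Alox5 (1.9) and its activating protein Alox5ap (1.83), which together start leukotriene synthesis, and the kinin receptor Bdkrb2 (2.91). This count was 1 (without sham 2 or 3) to 12 (without CVST 2 d 5). Of the 11 called genes named here, 3 were called in all 9 fits that left out 1 library, and 2, 8, 8 and 6 were not called without sham 1, 2, 3 and 4 and 6, 4, 5, 4 and 0 without CVST 2 d 1 to 5, with an adjusted p of up to 0.14 (Tnfrsf1b).

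Interleukin 6 and its relatives act through the shared receptor gp130 and the transcription factor STAT3, and Socs3 is the feedback inhibitor that STAT3 switches on. Of 20 tested genes of this route 9 were higher and 0 lower, against 4.19% higher among all genes tested. Their median log2 fold change was 0.94, and the count of higher ones was 4 (without sham 2 or 3) to 13 (without CVST 2 d 5). Among the ligands, Lif, Il11 and Clcf1 rose by 4.09, 4.71 and 3.54 on the log2 scale. Osmr, the receptor chain for oncostatin M, was at 8.68, 4.25, 3.92 and 6.67 CPM in sham and 19.1, 24.7, 16.7, 26.9 and 17.5 CPM at 2 days. All CVST values lay above all sham values, with samples 3 and 5 the lowest of them (log2 fold change 1.84 ± 0.25 SE, adjusted p = 0.0053). Stat3 rose from 46.4 ± 2.19 to 117 ± 35.8 CPM (log2 fold change 1.33 ± 0.20 SE, adjusted p = 0.0076). Socs3 was at 3.78, 2.995, 3.58 and 3.04 CPM in sham and 24.5, 38.3, 21.7, 53.1 and 12.7 CPM at 2 days, without overlap and again with the smallest CVST value in sample 5 (log2 fold change 3.16 ± 0.39 SE, adjusted p = 0.0043). Cebpd, a C/EBP transcription factor of the acute phase, rose by 2.69 on the log2 scale (adjusted p = 0.0028). Of the 7 called genes named here, 4 were called in all 9 fits that left out 1 library, and 1, 3, 3 and 2 were not called without sham 1, 2, 3 and 4 and 2, 2, 1, 2 and 0 without CVST 2 d 1 to 5, with an adjusted p of up to 0.13 (Lif). Without CVST 2 d 1, 2, 3 or 4, Il11 had too few counts left to be tested.

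Other transcription factors of injury moved in the same direction. Of 35 tested, 12 were higher and 0 lower (34.3% against 4.19% of all genes higher), and the count was 4 (without sham 3) to 17 (without CVST 2 d 5). Atf3, a stress factor of the ATF/CREB family, rose from 0.5496 ± 0.1699 to 5.404 ± 2.902 CPM, and Maff, a small Maf protein, from 0.985 ± 0.4001 to 5.05 ± 1.75 CPM (adjusted p = 0.0062 and 0.0082). Spi1, the factor that sets the myeloid lineage and is known in the brain from microglia, rose by 1.62 and Nfkb2 by 1.48 on the log2 scale. Cdkn1a, the inhibitor of cyclin-dependent kinases, rose by 1.51 (adjusted p = 0.0062), in the same tissue in which genes of cell division rose. All 5 genes named here were called in each of the 9 fits that left out 1 library.

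Genes of the cytoskeleton and of the matrix around cells gave some of the highest shares of calls. Among all genes tested 4.19% were higher. Of 33 tested cytoskeletal genes 18 were higher and 0 lower, with a median log2 fold change of 0.75, and the count was 10 (without sham 2 or 3) to 23 (without CVST 2 d 5). Vim, the intermediate filament of reactive glia and vessel cells, rose from 33.03 ± 5.38 to 283 ± 135 CPM (log2 fold change 3.10 ± 0.42 SE, adjusted p = 0.0052). Tubb6, a tubulin of non-neuronal cells, rose by 3.23, the actin crosslinker Flnc by 3.83, and Ezr, which ties actin to the membrane, by 0.91 on the log2 scale, all with adjusted p of at most 0.0062. Of 34 tested genes of adhesion and proteolysis at the cell surface 21 were higher and 0 lower, with a median of 1.75. Lgals3, a galectin of activated phagocytes, rose from 0.538 ± 0.227 to 9.73 ± 8.53 CPM, Mmp19, a matrix metalloproteinase, from 0.5603 ± 0.209 to 3.04 ± 0.665 CPM, and Plaur, the receptor for urokinase, from 1.15 ± 0.414 to 5.73 ± 2.73 CPM (adjusted p = 0.009, 0.0048 and 0.011). Mmp3, the metalloproteinase stromelysin, had a log2 fold change of 4.31 (adjusted p = 0.044). The count was 6 (without sham 2 or 3) to 25 (without CVST 2 d 5), and 6 members were called when all 14 samples shared 1 fit. Of the 8 called genes named here, 7 were called in all 9 fits that left out 1 library, and 0, 1, 1 and 1 were not called without sham 1, 2, 3 and 4 and 1, 1, 1, 1 and 0 without CVST 2 d 1 to 5, with an adjusted p of up to 0.13 (Mmp3). Without CVST 2 d 1, 2, 3 or 4, Mmp3 had too few counts left to be tested.

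Among genes of cell division, the mitosis list lay above sham as a group in 4 of the 5 CVST samples. Of 56 tested genes of mitosis and cytokinesis 35 were higher and 0 lower, with a median log2 fold change of 1.95. Of 38 genes of DNA replication 13 were higher, of 28 of nucleotide synthesis 9, and of 36 of DNA repair 5, each with 0 lower, against 4.19% higher among all genes. Cdk1, the kinase that drives entry into mitosis, was at 0.116, 0.0599, 0.248 and 0.213 CPM in sham and 5.52, 7.47, 5.75, 6.03 and 0.0578 CPM at 2 days. Samples 1 to 4 were far above sham, while sample 5 lay at the level of the lowest sham (log2 fold change 4.87 ± 0.96 SE, adjusted p = 0.02). Both of those values are near the floor of counting, so their order carries no meaning. Ncapg, a condensin subunit, rose from 0.259 ± 0.178 to 2.83 ± 1.604 CPM and Ube2c, which helps to end mitosis by tagging cyclins for destruction, from 0.2197 ± 0.0954 to 4.36 ± 2.44 CPM (adjusted p = 0.018 and 0.021). Spc25 of the kinetochore and the motor Cenpe, with the smallest p-values of the mitosis list, rose by 2.58 and 1.65 on the log2 scale. Of the replication and nucleotide genes, Lig1, the ligase that joins new DNA fragments, rose by 0.99, the loading factors Cdt1 and Cdc6 by 2.16 and 2.8, and the thymidine kinase Tk1 and the ribonucleotide reductase subunit Rrm2 by 2.79 and 2.33. Of the 10 called genes named here, 3 were called in all 9 fits that left out 1 library, and 4, 7, 7 and 6 were not called without sham 1, 2, 3 and 4 and 4, 5, 5, 4 and 0 without CVST 2 d 1 to 5, with an adjusted p of up to 0.092 (Rrm2). Without CVST 2 d 1, 2, 3 or 4, Cdk1, Ube2c and Cdc6 had too few counts left to be tested.

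These counts rested heavily on which libraries were present. The count of higher mitosis genes was 2 (without sham 3 or 4) to 50 (without CVST 2 d 5), that of replication genes 1 (without sham 2 or 3) to 27 (without CVST 2 d 5), that of nucleotide genes 0 (without sham 2 or 3) to 15 (without CVST 2 d 5) and that of repair genes 1 (without sham 2, 3 or 4 or CVST 2 d 2) to 13 (without CVST 2 d 5). The mean log2 level of the mitosis genes, taken relative to the sham mean, was between 1.90 and 2.36 in CVST samples 1 to 4 and -0.07 in sample 5, where the shams ranged from -0.11 to 0.12. For replication and nucleotide genes sample 5 lay at 0.098 and 0.0906, slightly above the highest shams at 0.0388 and 0.0659. For repair genes it lay at 0.101, where the highest sham was 0.102.

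Promoters of mitotic genes are known for 2 short elements: CCAAT boxes, bound by NF-Y, and the cell cycle homology region (CHR) TTTGAA, through which the DREAM complex and B-Myb act. The windows of 3 called mitotic genes are shown because both elements lie in them, and that of Socs3 because it holds a STAT palindrome. Each is the 250 bases before the RefSeq start in GRCm38.p6, 5′ to 3′ on the gene's strand, with the capitals marking the matches (CCAAT and TTTGAA on either strand in the mitotic genes, and in Socs3 the STAT palindrome TTCNNNGAA). In the window of Ube2c a CCAAT box and a reversed one overlap.
Ncapg (chr5:45669675-45669924, plus strand): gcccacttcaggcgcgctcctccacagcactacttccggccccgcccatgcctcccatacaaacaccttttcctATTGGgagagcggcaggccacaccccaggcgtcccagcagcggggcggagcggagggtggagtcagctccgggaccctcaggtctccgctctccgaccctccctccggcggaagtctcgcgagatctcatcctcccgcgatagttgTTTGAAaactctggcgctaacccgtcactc
Cdk1 (chr10:69352913-69353162, minus strand): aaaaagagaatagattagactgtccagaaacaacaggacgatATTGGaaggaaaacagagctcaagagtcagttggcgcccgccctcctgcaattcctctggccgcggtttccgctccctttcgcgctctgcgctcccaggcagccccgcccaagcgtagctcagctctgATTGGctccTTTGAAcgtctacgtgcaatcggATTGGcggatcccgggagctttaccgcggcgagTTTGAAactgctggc
Ube2c (chr2:164769679-164769928, plus strand): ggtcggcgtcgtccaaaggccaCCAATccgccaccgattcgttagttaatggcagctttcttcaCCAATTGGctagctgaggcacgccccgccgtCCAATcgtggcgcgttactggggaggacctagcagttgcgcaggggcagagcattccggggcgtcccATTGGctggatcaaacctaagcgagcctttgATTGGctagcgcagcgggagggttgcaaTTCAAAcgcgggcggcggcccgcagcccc
Socs3 (chr11:117969367-117969616, minus strand): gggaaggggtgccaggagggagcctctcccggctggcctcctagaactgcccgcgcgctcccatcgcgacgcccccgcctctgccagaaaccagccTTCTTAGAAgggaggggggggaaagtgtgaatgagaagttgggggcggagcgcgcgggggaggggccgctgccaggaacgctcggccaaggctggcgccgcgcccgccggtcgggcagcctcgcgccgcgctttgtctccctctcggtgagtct

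Of the 48 mitosis genes with a window of 250 bases before to 50 bases after the start, 34 (70.8%) held the CHR letters on either strand and 33 (68.8%) a CCAAT box. Among all 12118 tested genes with a window the shares were 14.4% and 42.6%. Over the 538 called higher genes with a window the CHR letters were in 24.0%, the AP-1 letters TGANTCA in 13.8% and the interferon-stimulated response element in 7.43%, against 14.4%, 6.31% and 3.65% of all windows. Over the 95 lower genes with a window the same 3 shares were 14.7%, 4.21% and 7.37%, and the cAMP response letters TGACGTCA were in 6.32%, against 3.39% of all windows. The STAT palindrome was in 12.3% of higher, 12.6% of lower and 8.07% of all windows. A CCAAT box was in 37.2% of higher and 46.3% of lower windows, against 42.6% of all, so the higher genes as a whole held it less often. The median GC content of the windows was 57.7% for higher, 60.6% for lower and 60.7% for all genes, and letters poor in GC can be met more often where GC is lower; its part in these shares was not tested. A match of letters describes the window and does not show that a factor binds there.

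Polyamines are made from arginine by way of ornithine, and 4 of 26 tested genes of polyamine and amino acid supply were higher, against 4.19% of all genes tested. They were Arg1, Odc1, the ornithine decarboxylase (1.04), Sat1, which acetylates polyamines (0.63), and Slc3a2, a chain of amino acid exchangers (0.39). Of the 26, 10 had a negative log2 fold change, and the list's median was 0.1. The count was 0 (without sham 3 or 4) to 4 (without CVST 2 d 5). Retinoic acid is made by retinaldehyde dehydrogenases and destroyed by CYP26 enzymes. Of 20 tested genes of this pathway 2 were higher and 1 lower, with a median log2 fold change of 0.14. The higher count was 2 (without sham 1, 2, 3 or 4 or CVST 2 d 1, 2, 3 or 4) to 7 (without CVST 2 d 5) and the lower count 0 (without sham 2, 3 or 4 or CVST 2 d 1, 2 or 4) to 2 (without CVST 2 d 5). Aldh1a2, which makes it, rose from 9.26 ± 1.33 to 22.6 ± 3.62 CPM, and Stra6, the cell surface receptor that takes up its precursor retinol, from 5.73 ± 1.03 to 14.96 ± 2.41 CPM (adjusted p = 0.0033 and 0.0039). Cyp26b1, which destroys retinoic acid, was at 8.91, 23.9, 11.03 and 20.6 CPM in sham and 3.03, 4.65, 7.39, 3.62 and 7.34 CPM at 2 days. The groups did not overlap (log2 fold change -1.63 ± 0.35 SE, adjusted p = 0.026), the shams with the higher values being 2 and 4, and the difference between the enzymes was not tested. Aldh1a2 is also a gene of the meninges. Of 12 tested meningeal genes it and Col1a1 (1.22) were higher. Of the 12, 8 had a positive log2 fold change, and the median was 0.47. The count of higher ones was 1 (without sham 1, 2, 3 or 4 or CVST 2 d 1, 2 or 3) to 5 (without CVST 2 d 5). The mean log2 level of the list, less the sham mean, was -0.245 to 0.3103 in sham and -0.035 to 0.656 in the CVST samples. The part of meningeal tissue in the result for Aldh1a2 was not tested. Of 31 tested growth factors 3 were higher, namely Tgfb1 (1.73), Fgf2 (0.97) and Angpt2 (2.06), a ligand of the endothelial receptor Tie2. In this list 1 was lower, Fgf13 (-0.59). The list's median was -0.13, with 20 members negative. The higher count was 1 (without sham 3 or 4) to 6 (without CVST 2 d 5). Of the 12 called genes named here, 3 were called in all 9 fits that left out 1 library, and 4, 7, 9 and 9 were not called without sham 1, 2, 3 and 4 and 5, 6, 4, 5 and 0 without CVST 2 d 1 to 5, with an adjusted p of up to 0.13 (Col1a1).

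Housekeeping machinery of growing cells had few called members. Of 33 tested genes of ribosome biogenesis 1 was higher (Ddx21, 0.58), which is 3.03% against the 4.19% of all genes. Of 37 proteasome subunits 1 was higher, and it was Psmb8, the interferon-inducible subunit of the immunoproteasome (1.55). Neither list had a member called lower. Yet 29 of the 33 and 36 of the 37 had a positive log2 fold change, with medians of 0.17 and 0.17 (-0.0028 over all genes tested). The 2 groups were apart upward for 5 and 6 of them, against 5.92% of all genes tested. Slc39a1, a zinc importer, rose by 0.73. Of the 3 called genes named here, 0 were called in all 9 fits that left out 1 library, and 1, 3, 3 and 2 were not called without sham 1, 2, 3 and 4 and 1, 1, 0, 0 and 0 without CVST 2 d 1 to 5, with an adjusted p of up to 0.076 (Ddx21).

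Of the 120 lower genes 9 were called whichever library was left out: Appl2, Col11a2, H1f4, Tprkb, Cort, Nectin1, H2ac6, Rbm24 and Abhd3. Appl2, an adaptor protein of early endosomes, had the smallest p-value among them and was at 99.6, 90.1, 96.3 and 93.7 CPM in sham and 62.3, 68.6, 66.6, 60.4 and 71.9 CPM at 2 days. Every CVST sample lay below every sham, in a narrow range (log2 fold change -0.53 ± 0.07 SE, adjusted p = 0.0052). Col11a2, a chain of the fibrillar collagen XI, was at 27.3, 21.8, 21.4 and 23.5 CPM in sham and 10.2, 13.4, 11.96, 7.29 and 10.6 CPM at 2 days. It fell while its relative Col5a3 rose, and its groups did not overlap (log2 fold change -1.13 ± 0.16 SE, adjusted p = 0.0059). Tprkb, a subunit of the KEOPS complex that modifies transfer RNA, fell from 58.7 ± 2.59 to 36.4 ± 5.15 CPM (log2 fold change -0.69 ± 0.10 SE, adjusted p = 0.0076). Nectin1, an adhesion molecule of cell junctions and synapses, fell from 52.3 ± 3.32 to 35.99 ± 3.59 CPM (log2 fold change -0.54 ± 0.09 SE, adjusted p = 0.0099). Rbm24, an RNA-binding splicing regulator, and Abhd3, a lipid hydrolase, fell by 0.72 and 0.65 on the log2 scale (adjusted p = 0.01 and 0.01).

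In Cort, which encodes the neuropeptide cortistatin of inhibitory neurons, the values were 6.05, 3.89, 7.102 and 4.64 CPM in sham and 1.73, 1.93, 1.63, 1.32 and 2.71 CPM at 2 days. CVST sample 4 was the lowest, and the groups were apart (log2 fold change -1.54 ± 0.25 SE, adjusted p = 0.0098). Of 30 tested neuropeptide genes 2 were lower and 0 higher, against 0.731% lower among all genes. The other was Pcsk1, which cuts prohormones into peptides and fell from 58.7 ± 7.15 to 37.1 ± 7.21 CPM (log2 fold change -0.66 ± 0.14 SE, adjusted p = 0.024); without sham 1, 2 or 3 or CVST 2 d 1, 2 or 3 only 1 member was called, and without CVST 2 d 5 there were 4.

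**Figure D3:**
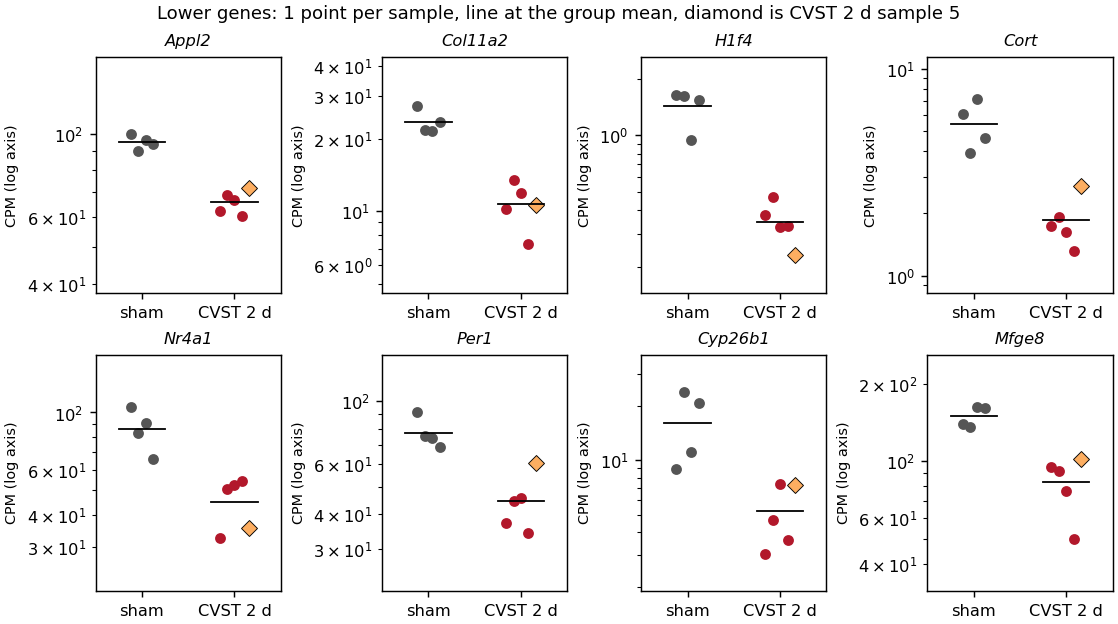
CPM (vertical log axes, different range in each panel) of 8 genes called lower, 1 point per sample, with a line at each group's mean and a diamond for CVST 2 d sample 5. The groups are apart in all 8 panels, and sample 5 is the CVST sample nearest to sham for Appl2, Cort, Per1 and Mfge8. It is not for H1f4, whose CVST values are near the floor of counting.

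The histone genes that were called were lower. H1f4, a linker histone that is made in S phase, was at 1.63, 1.62, 0.944 and 1.55 CPM in sham and 0.379, 0.4701, 0.327, 0.329 and 0.231 CPM at 2 days. The CVST values lay below all shams (log2 fold change -2.01 ± 0.30 SE, adjusted p = 0.0075), also in sample 5, whose mitosis genes lay within the sham range. These CVST values are near the floor of counting, so their order carries no meaning. H2ac6, a core histone of type H2A, fell from 1.03 ± 0.185 to 0.226 ± 0.1004 CPM (log2 fold change -2.18 ± 0.36 SE, adjusted p = 0.01), and H2bc6, of type H2B, from 4.38 ± 1.59 to 1.78 ± 0.403 CPM (log2 fold change -1.29 ± 0.29 SE, adjusted p = 0.033). The CVST values of H2ac6 are also near the floor of counting. For H2bc6 the groups overlapped, with sham 1 at 2.15 and CVST sample 1 at 2.33 CPM. Histone genes of this kind make messages that end without a poly(A) tail, and the labels do not say whether the libraries selected for such tails. Only 8 of the 39 core histone genes of the list had enough counts for the test, 2 of them lower and 0 higher, a list chosen after seeing the values. Of 4 linker histones tested 1 was lower, and H1f0, the linker histone of resting cells, and H1f10 had log2 fold changes of 0.01 and -0.25 without a call. Without sham 2, 3 or 4 or CVST 2 d 1, 2, 3 or 4, 1 core histone gene was called. Over all genes tested 0.731% were lower.

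Several genes that neuronal activity switches on were lower. Nr4a1, an orphan nuclear receptor of this kind, was at 105, 83.5, 91.1 and 66.2 CPM in sham and 32.5, 50.7, 52.2, 54.4 and 35.8 CPM at 2 days. Every CVST value lay below every sham value, with samples 1 and 5 the lowest (log2 fold change -0.94 ± 0.18 SE, adjusted p = 0.017). Per1, a repressor of the circadian clock that activity and glucocorticoids also raise, was at 91.5, 75.6, 74.2 and 69.01 CPM in sham and 37.1, 44.4, 45.5, 34.2 and 60.8 CPM at 2 days. The CVST sample nearest to sham was sample 5 (log2 fold change -0.81 ± 0.16 SE, adjusted p = 0.019). Its relative Per2 fell from 43.9 ± 6.904 to 27.2 ± 4.49 CPM, Nr4a3 from 46.3 ± 7.26 to 19.01 ± 7.95 CPM, and Nab2, a corepressor of EGR factors, from 43.1 ± 2.23 to 33.7 ± 1.85 CPM (adjusted p = 0.024, 0.026 and 0.024). In a group of 26 tested activity genes chosen after seeing values these 5 were lower and 0 higher, against 0.731% lower of all genes tested. The list as a whole moved little, with a median log2 fold change of -0.15, 18 members negative and 8 positive. The count of lower ones was 0 (without sham 3) to 8 (without CVST 2 d 4). CVST sample 4 went the other way for this list as a whole. Its mean log2 level, less the sham mean, was 0.256, above the highest sham at 0.0758, where the other CVST samples lay at -0.556 to -0.299. Of 21 clock genes 2 were lower (Per1 and Per2), against 0.731% of all genes tested, and 17 had a negative log2 fold change. The lower count was 0 (without sham 3) to 4 (without CVST 2 d 5). The hour of the day at which tissue was taken is not given in the labels for either group, and its part in the clock genes was not tested. Of the 5 called genes named here, 0 were called in all 9 fits that left out 1 library, and 3, 4, 5 and 3 were not called without sham 1, 2, 3 and 4 and 2, 3, 1, 0 and 0 without CVST 2 d 1 to 5, with an adjusted p of up to 0.088 (Nr4a3).

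Receptors and channels of neurons changed little one by one. None of 24 tested glutamate receptor genes was called, although 21 had a negative log2 fold change, and at an unadjusted p under 0.05 the whole table held 1332 lower genes. Of 17 GABA and glycine receptor genes 1 was lower, Gabra2, a subunit of the GABA-A receptor, at 63.3 ± 12.9 to 37.9 ± 7.69 CPM (log2 fold change -0.74 ± 0.17 SE, adjusted p = 0.034), and 16 were negative. Of 28 sodium and calcium channel genes 1 was lower, Cacng3, a subunit that also guides AMPA receptors (-0.5). Of 57 potassium channel genes the 1 lower was Kcnc4 (-0.4), and of 50 receptors for monoamines, acetylcholine and peptides the 1 lower was Htr7, a serotonin receptor, which fell from 12.0 ± 1.22 to 7.32 ± 1.01 CPM (log2 fold change -0.71 ± 0.13 SE, adjusted p = 0.015). The shares called lower in these 5 lists were 0, 5.88, 3.57, 1.75 and 2%, each resting on at most 1 gene, against 0.731% of all genes tested. Without CVST 2 d sample 5 the lower counts of these 5 lists were 7, 5, 6, 6 and 8, and without some other library each was 0 in turn. Of the 4 called genes named here, 0 were called in all 9 fits that left out 1 library, and 2, 4, 3 and 4 were not called without sham 1, 2, 3 and 4 and 3, 3, 2, 2 and 0 without CVST 2 d 1 to 5, with an adjusted p of up to 0.14 (Kcnc4). The median log2 fold change of 13 cortical excitatory neuron markers was -0.12, with 0 called.

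Genes of neuronal form and signalling outside these lists were also lower. Ryr1, a calcium release channel of internal stores, fell from 21.1 ± 4.02 to 10.3 ± 2.8 CPM (log2 fold change -1.03 ± 0.20 SE, adjusted p = 0.019). Cttnbp2, which binds cortactin in dendritic spines, fell by 0.6, Rhobtb2, an atypical small GTPase, by 0.55, and Sbk1, a brain kinase, by 0.42 on the log2 scale. Kcng1, a silent subunit that modifies potassium channels, fell from 49.1 ± 18.02 to 19.8 ± 5.83 CPM (log2 fold change -1.31 ± 0.27 SE, adjusted p = 0.025), and Fgf13, which binds sodium channels inside the cell, by 0.59. Among guidance genes Dcc, the netrin receptor, was the 1 of 65 lower (-0.96), against 1 higher, Sema4a (0.76), and 14 were lower without sample 5. Over all genes tested 0.731% were lower and 4.19% higher. Mapt, which encodes tau, Cdk5r1, the activator of the neuronal kinase Cdk5, and Cx3cl1, the chemokine that neurons show to microglia, fell by 0.27, 0.39 and 0.33, and these 3 were named after their values had been seen. Of the 11 called genes named here, 0 were called in all 9 fits that left out 1 library, and 5, 10, 8 and 10 were not called without sham 1, 2, 3 and 4 and 7, 7, 6, 7 and 0 without CVST 2 d 1 to 5, with an adjusted p of up to 0.16 (Cx3cl1).

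Some lower genes belong to astrocytes and developmental signals. In Mfge8, a secreted bridge between dying cells and phagocytes, the values were 140.4, 136, 163 and 162 CPM in sham and 95.05, 91.4, 76.99, 50.1 and 102 CPM at 2 days, with CVST sample 4 the lowest (log2 fold change -0.85 ± 0.18 SE, adjusted p = 0.024). Gldc, the glycine-splitting enzyme of astrocytes, fell from 30.5 ± 4.1 to 16.99 ± 4.71 CPM (log2 fold change -0.85 ± 0.18 SE, adjusted p = 0.028). Slc39a12, a zinc importer of brain, and Slc30a10, a manganese exporter, fell by 0.86 and 0.94 on the log2 scale while Slc39a1 rose, so that of 21 tested metal transporters 2 were lower and 1 higher. Of 12 tested genes of the Hedgehog pathway 2 were lower and 0 higher, against 0.731% lower of all genes tested. They were Hhip, a surface protein that binds and blocks Hedgehog, which fell from 9.38 ± 2.24 to 4.197 ± 1.06 CPM (log2 fold change -1.16 ± 0.22 SE, adjusted p = 0.019), and the receptor Ptch1 (-0.46), both of them targets that the pathway itself switches on. The metal and Hedgehog groups were put together after the values had been seen, and their lower counts were 0 (without sham 2, 3 or 4 or CVST 2 d 1) to 2 (without CVST 2 d 4 or 5) and 0 (without sham 2 or 4) to 3 (without CVST 2 d 5). Neurl1b, a ubiquitin ligase of Notch signalling, Mn1, a transcriptional coregulator, and Mycn, a MYC family factor, fell by 0.63, 0.76 and 1.09. Hdac9, a histone deacetylase, and Kmt2a, a histone methyltransferase, fell by 0.66 and 0.62, the 2 lower of 47 tested chromatin regulators, against 0.731% of all genes tested. That count was 0 (without sham 2 or 3 or CVST 2 d 2) to 5 (without CVST 2 d 5). Of the 12 called genes named here, 0 were called in all 9 fits that left out 1 library, and 3, 12, 10 and 10 were not called without sham 1, 2, 3 and 4 and 5, 5, 5, 2 and 0 without CVST 2 d 1 to 5, with an adjusted p of up to 0.14 (Kmt2a).

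Among the largest falls were genes of low level. Ebf2, a transcription factor of mesenchymal and neural lineages, was at 0.699, 2.52, 2.09 and 2.19 CPM in sham and 0.325, 0.4701, 0.196, 0 and 0.635 CPM at 2 days. Sham 1 lay well below the other shams, and CVST sample 5 just under it (log2 fold change -2.49 ± 0.60 SE, adjusted p = 0.043). Egfl6, a secreted EGF repeat protein, and Fam180a fell from 1.99 ± 0.619 to 0.802 ± 0.202 CPM and 3.14 ± 0.691 to 1.17 ± 0.486 CPM (adjusted p = 0.034 and 0.033). Dnah7b, a dynein heavy chain, was the 1 lower of 31 tested genes of motile cilia, falling by 1.34 (adjusted p = 0.016), and 7 were lower without sample 5. That is 3.23% of the list in the main fit, against 0.731% of all genes tested. Near-identical neighbours of Dnah7b could share its reads. Of the 4 called genes named here, 0 were called in all 9 fits that left out 1 library, and 0, 4, 3 and 4 were not called without sham 1, 2, 3 and 4 and 3, 2, 2, 1 and 0 without CVST 2 d 1 to 5, with an adjusted p of up to 0.13 (Ebf2).

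Of the called genes 18 higher and 7 lower had a biotype other than protein coding in GENCODE vM21, as had 1808 of the 16413 genes tested. Mir17hg, the host transcript of a microRNA cluster that promotes growth, rose from 0.653 ± 0.119 to 1.57 ± 0.269 CPM, and H19, an imprinted RNA of fetal tissue, from 0.281 ± 0.281 to 3.58 ± 2.15 CPM (adjusted p = 0.022 and 0.024). Gvin3, Ifi30, AI506816 and AU020206 were higher with adjusted p of 0.0051, 0.0082, 0.0091 and 0.012, although Ifi30 encodes a lysosomal reductase and its label there is that of a transcript without a reading frame. On the lower side were Rian, an imprinted RNA of neurons, which fell from 804 ± 25.7 to 633 ± 59.9 CPM (log2 fold change -0.34 ± 0.08 SE, adjusted p = 0.044), 1700086L19Rik (-0.89) and C030018K13Rik (-1.65). Prdm16os and Dlx6os1, which lie antisense to other genes, were lower by 1.32 and 0.67 on the log2 scale. Whether counting used the strand is not stated, so their reads cannot be told apart from those of the partner gene. Of the 11 called genes named here, 2 were called in all 9 fits that left out 1 library, and 3, 8, 7 and 8 were not called without sham 1, 2, 3 and 4 and 6, 5, 3, 2 and 1 without CVST 2 d 1 to 5, with an adjusted p of up to 0.12 (Rian). Without CVST 2 d 2, 3, 4 or 5, Gvin3 had too few counts left to be tested.

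Markers of other cells and tissues that the samples could hold were read beside these results. Of 11 tested monocyte and macrophage markers 6 were higher, among them Chil3 (4.39) and F13a1 (1.98), and the list's mean log2 level was 1.52 to 3.12 above the sham mean in the 5 CVST samples, against -0.08 to 0.18 in sham. The count of higher markers was 1 (without sham 3) to 7 (without CVST 2 d 5), and 2 when all 14 samples shared 1 fit. The 4 tested globin genes had log2 fold changes of 3.19 (Hbb-bt), 3.63 (Hba-a1), 3.39 (Hba-a2) and 3.52 (Hbb-bs) with 0 called (adjusted p of 0.087, 0.066, 0.077 and 0.068; the copies of each globin are near-identical), and their mean level reached 5.30 in sample 2 against 1.46 in the highest sham. All 4 were called higher without CVST sample 5, with the replicate block and with DESeq2, 3 with no filter on low counts and 0 with voom. Of 13 lymphocyte markers only Cd4 was tested, and 8 had at most 10 counts over the 9 libraries. Of 10 neutrophil markers 3 were tested and Csf3r was higher (1.06). Of 10 microglial markers 2 were higher, among them Fcrls (1.94), against 4.19% of all genes tested. That count was 0 (without sham 1, 2, 3 or 4 or CVST 2 d 1) to 7 (without CVST 2 d 5). All 13 striatal markers had a negative log2 fold change and 0 were called, with a median of -0.97. The list's mean level split the shams, at -1.51 and -1.54 in shams 1 and 3 and 1.44 and 1.6 in shams 2 and 4, and it was 1.08 in CVST sample 5 and -1.66 to -0.58 in the other CVST samples. Of the 120 lower genes 28 were higher in both shams 2 and 4 than in both shams 1 and 3, which is 23.3% against 17.2% of all genes tested. The mean level of 10 choroid plexus markers, with 0 called, spread more widely, from -2.25 to 2.33 in sham and -2.22 to 1.65 in the CVST samples. That of 10 hippocampal markers, with 0 called, was -0.56 to 0.64 in sham and -1.21 to 0.50 in the CVST samples. The part of these tissues in the called genes was not tested. Of the 4 called genes named here, 0 were called in all 9 fits that left out 1 library, and 2, 4, 4 and 3 were not called without sham 1, 2, 3 and 4 and 2, 1, 1, 1 and 0 without CVST 2 d 1 to 5, with an adjusted p of up to 0.15 (Csf3r).

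CVST sample 5 did not differ from sham in the same way for all genes. For 515 of the 687 higher and 67 of the 120 lower genes it was the CVST sample nearest to sham, and for 113 and 9 of them it lay within or beyond the sham range. Its median place between the sham mean and the mean of samples 1 to 4 was 0.477 of the way for the higher and 0.636 for the lower genes. These genes were called with sample 5 in the fit, which favours genes that moved in it. For the 1464 higher and 779 lower genes called without it, the median place was 0.251 and 0.0632. In 723 and 560 of them it lay within or beyond the sham range. That choice in turn favours genes that moved most in the other CVST samples. By list sample 5 stood above every sham for Fc and complement receptors (1.27), the NADPH oxidase (0.93), gp130 and STAT3 signalling (0.61) and the macrophage markers (1.61). It stood within the sham range for mitosis genes (-0.07), for glutamate receptors (-0.06, shams -0.11 to 0.08, other CVST samples -0.46 to -0.27) and for motile cilium genes (0.03, shams -0.14 to 0.22, other CVST samples -0.57 to -0.20). For microglial markers it lay at -0.48, below the lowest sham (-0.11), where the other CVST samples lay at 0.48 to 0.92. For glucocorticoid-responsive genes it lay at 1.14, above the shams (-0.26 to 0.30) and the other CVST samples (-0.01 to 0.21). Of the 23 tested genes of that list 2 were called higher and 1 lower in the main fit, against 4.19% and 0.731% of all genes tested. Cd4, the coreceptor of helper T cells that macrophages can also express, was at 0.931, 10.4, 0.596 and 14.9 CPM in sham and 2.33, 0.705, 1.18, 1.59 and 12.2 CPM at 2 days. Sample 5 was above the other CVST samples and within the sham range, in which shams 2 and 4 were high. The striatal list was high in the same samples, at 1.44 and 1.6 in shams 2 and 4 and 1.08 in sample 5. It lay at -1.51 and -1.54 in shams 1 and 3 and -1.66 to -0.58 in the other CVST samples. The T cell gene Cd3e had 5 counts over the sham and 1 over the CVST libraries. The part of striatal tissue in the Cd4 values was not tested. The values given for lists are means of log2 CPM over the genes of a list, less the sham mean.

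**Figure D4:**
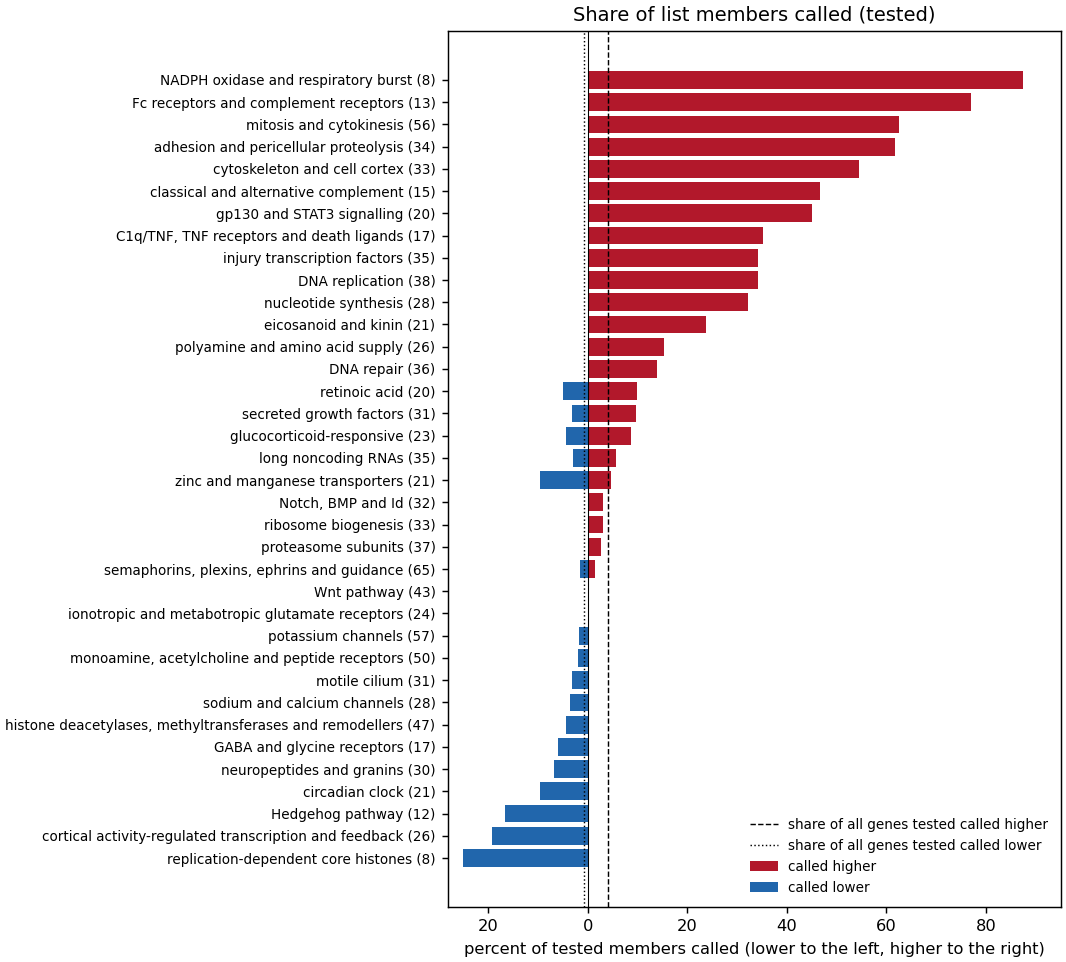
Percent of the tested members of each list that were called higher (to the right, red) or lower (to the left, blue), with the number tested in brackets. The dashed and dotted lines mark the shares over all genes, 4.19% higher and 0.731% lower; receptors and oxidase genes of phagocytes, mitosis and adhesion genes lead on the right.

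**Figure D5:**
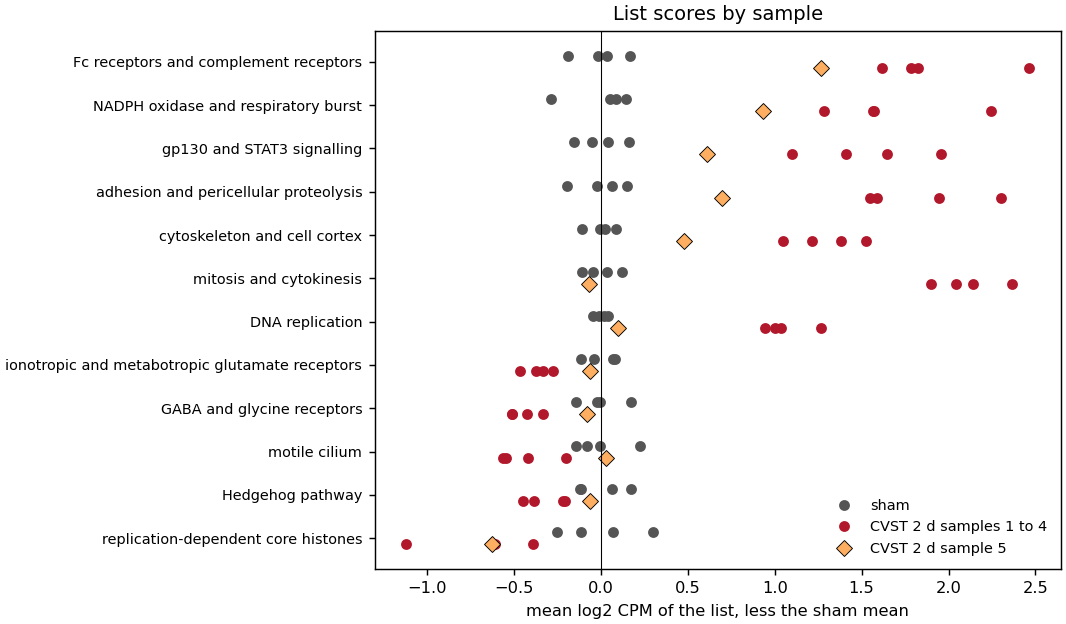
Mean log2 CPM of the genes of 12 lists, less the sham mean (horizontal axis), 1 point per sample, with sham in grey, CVST 2 d samples 1 to 4 in red and sample 5 as a diamond. Sample 5 lies right of the shams in the first 5 lists and among the shams for mitosis and glutamate receptors.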

How the data were processed

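Bulk RNA of mouse cerebral cortex was measured by RNA-seq in 4 sham samples and 5 samples taken 2 days after CVST. The authors deposited read counts per gene and FPKM values (fragment counts scaled by transcript length and library size) in tables of the whole series. Per the submitters' processing notes fastp, HISAT2 and DESeq2 1.16.1 were used with the build mm39. Which tool counted the reads, with which annotation release and strand setting, is not stated there or in the labels. Entries without an Ensembl gene, 0.203 to 0.278% of the counts of a library, were left out.

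From the counts, edgeR 4.0.16 (R 4.3.3) was fitted to the 9 libraries with TMM scaling, filterByExpr and the quasi-likelihood test, and p-values were adjusted by Benjamini-Hochberg over the 16413 genes that passed the filter. Log2 CPM of single samples used a prior count of 2. The common biological coefficient of variation was 0.205. Replicates of a group differed beyond sampling noise (chi-square per degree of freedom 13.1 to 43.2), so none was counted as a copy. The deposited FPKM served only to imply transcript lengths as counts over FPKM. Promoter windows came from RefSeq (GRCm38.p6), matched by symbol for 538 of 687 higher, 95 of 120 lower and 12118 of all tested genes, and biotypes came from GENCODE vM21 by Ensembl ID. The script was tested on simulated data. Alternatives were a fit of all 14 samples, the replicate number as a block, DESeq2 size factors, DESeq2 1.42.0, limma 3.58.1 voom with sample weights, no filter on low counts, robust dispersion, and leaving out each library in turn.

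Genes were named by rule: the 20 higher and 20 lower with the smallest p-values, the 12 in each direction with the largest fold at 1 CPM or more, up to 4 called members per list and direction (or the 2 most abundant where fewer than 2 were called), up to 8 noncoding genes per direction, and up to 15 per direction called in all 9 leave-one-out fits. Cdk1, Ncapg, Ube2c, Cybb, Tnfrsf1b, Tnfrsf12a, Ptges, Lif, Il11, Clcf1, Mmp3, Mfge8, Nr4a3, Gldc, Mycn, Mapt, Cdk5r1, Cx3cl1, Hbb-bt and Hba-a1 fall outside it and were chosen after their values were seen; some genes that the rule names are not reported here. The comparison, the 41 gene lists and the rule were chosen with earlier results of these data known, and 8 further lists after the values were seen. Lists are described by counts beside those of all genes and carry no test of their own.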

Additional observations from a re-analysis of the deposited data

Results flagged for a closer look

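In 25 of 322 groups checked, 1 sample lay farther from the rest of its group than Dixon's 95% limit for 4 or 5 samples. For normally distributed values chance alone would give about 1 in 20 such groups. Where all other samples are at 0, as in sham for Mmp3, Cd300lb and Tfpi2, any count is flagged by construction. The levels below are CPM, each followed by the range of the other samples of the same group.

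CVST 2 d sample 5 was the highest of its group in Cd4 (12.2, others 0.705 to 2.33). CVST 2 d sample 5 was the lowest of its group in Hspb6 (10.2, others 19.5 to 19.8), Cdk1 (0.0578, others 5.52 to 7.47), Ube2c (0.116, others 4.495 to 5.95) and Lig1 (11.1, others 15.4 to 15.8). CVST 2 d sample 2 was the highest of its group in Gpr84 (5.55, others 2.19 to 3.02), Clec4d (4.79, others 0.713 to 1.246), Fcgr3 (48.8, others 27.7 to 31.5), Ncf1 (25.7, others 14.04 to 16.9) and Lgals3 (24.5, others 2.71 to 8.63). CVST 2 d sample 1 was the lowest of its group in Rian (529, others 642 to 681). CVST 2 d sample 3 was the highest of its group in Cx3cl1 (589.7, others 494 to 517). CVST 2 d sample 4 was the highest of its group in Lif (26.1, others 0.809 to 7.31) and Pcsk1 (49.5, others 30.7 to 35.9). Sham 1 was the highest of its group in C1qb (33.4, others 28.9 to 29.4), Mmp3 (0.466, 0 in each of the others) and H19 (0.699, others 0.107 to 0.199). Sham 2 was the highest of its group in Hba-a2 (8.51, others 1.84 to 2.56). Sham 2 was the lowest of its group in Cyba (1.86, others 3.04 to 3.26). Sham 3 was the highest of its group in Cd300lb (0.0497, 0 in each of the others). Sham 3 was the lowest of its group in Mmp19 (0.248, others 0.6404 to 0.693) and H1f4 (0.944, others 1.55 to 1.63). Sham 4 was the highest of its group in Tfpi2 (0.0533, 0 in each of the others) and Htr7 (13.8, others 11.2 to 11.6). Sham 4 was the lowest of its group in Hdac9 (43.6, others 48.5 to 49.4).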

How the results depend on the processing

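The counts of called genes moved with the tool and with each library left out. With the replicate block 1103 genes were higher and 473 lower, with DESeq2's Wald test 1228 and 401, and with limma voom and sample weights 1453 and 866, against 687 and 120. The other alternatives kept within 1.5 times of these counts: all 14 samples in 1 fit gave 505 and 164, DESeq2 size factors 669 and 6 more lower ones than the main fit, no filter 788 and 123, and robust dispersion 663 and 118. DESeq2 kept all 687 and 120 calls, voom 678 and 118, the block 649 and 80, and the fit of all 14 samples 448 and 102. Leaving out 1 library gave 187 to 1464 higher and 13 to 779 lower genes, the highest without CVST 2 d 5 and the lowest without sham 3 (higher) and sham 2 (lower). No main call turned direction under any of these settings in which it was tested.

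The replicate numbers did not pair the samples: the deviations of same-numbered sham and CVST samples correlated at 0.03, -0.13, -0.05 and -0.09 for numbers 1 to 4, and sample 5 has no sham of its number, so that the block leaves it without weight in the contrast. Of the 151 named genes that were called, the block lost 7, the fit of all 14 samples 26, voom 3, no filter 3, robust dispersion 3 and both DESeq2 settings 0, while 63 were called in every leave-one-out fit and 13 in at most 1. Of these 13, Cdk1 and Ube2c had too few counts left to be tested without CVST 2 d 1, 2, 3 or 4. The log2 fold change of H1f0, not called, went to -0.0044 with all 14 samples, -0.0016 with DESeq2 size factors, -0.0013 with DESeq2, and lay between -0.0293 and 0.0466 when a library was left out. The difference in library totals (CVST 2 d less sham, in counts divided by 1000000) ranged from -1.32 to 0.102 when a library was left out, that in genes detected from -91.5 to 199, and that in mitochondrial share from -0.634 to -0.163 percentage points.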
